A study of Mus musculus with 12 samples.

Results

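The cytosolic ribosomal protein genes encode the proteins of the ribosome that translates messenger RNA in the cytoplasm. They were taken here as the protein-coding genes whose symbol begins with Rpl, Rps or Rplp followed by a digit, together with Rpsa. A symbol alone does not show that the product is part of the finished ribosome. Pseudogenes, the Rps6k kinases, Rps19bp1 and Rps27l were left out. The rule found 84 genes among the 49315 rows of the count tables, 52 of the large subunit and 32 of the small subunit, and it used no measured value. Of these, 82 passed the filter on low counts. Rpl10l had 0 counts in every library, which allows up to 3 counts a library, and Rpl3l had 39 counts over all 12 libraries.

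The libraries were made from primary mouse adult fibroblasts (MAFs), which the study isolated from the ears of adult female mice, either C57BL6/J (WT) or BMAL1 -/- (KO). BMAL1, encoded by Arntl, is a core transcription factor of the circadian clock. The cells were cultured at 3% oxygen and either sham irradiated (control) or given an x-ray dose of 20 Gy (senescent). By the study's methods, irradiated cells were then kept in culture for weeks, so these are not early responses to the dose. How long control cells were cultured after sham irradiation is not given in the sources used here. All 4 groups received 100 nM dexamethasone for 2 hours and were collected 12 hours later, so no group was free of dexamethasone. There were 3 libraries of each state in each genotype. The number of animals behind a group is not given in the sources used here, so the p-values measure only the spread between these libraries, which may be technical. The WT and KO libraries came in separate count tables, and a difference between the genotypes and a difference between the tables or the cell preparations cannot be told apart.

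The cytosolic ribosome joins ribosomal RNAs with its proteins in a large and a small subunit, and the proteins are made in balanced amounts. Most of their messages begin with a C followed by a run of pyrimidines, the terminal oligopyrimidine (TOP) motif, through which mTORC1 and the RNA-binding protein LARP1 control their translation. Their messages are abundant in growing cells. These libraries measured message levels only, and neither translation nor ribosomal RNA.

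The libraries held 23923030 to 31736083 counts. Levels are given as CPM, counts assigned to the gene out of every 1000000, scaled with TMM factors between 0.926 and 1.07. The senescent libraries had the higher factors, and without them the median log2 fold change of all genes tested moved to 0.19 in WT and 0.15 in KO cells. Arntl, the targeted gene, was at 29.8, 31.6 and 33.2 CPM in WT control libraries, 35.2 to 37.4 in WT senescent, 11.8 to 15.2 in KO control and 25.3 to 27.5 in KO senescent libraries. Its level was lower in KO cells in both states (log2 fold change -1.26 in control, adjusted p = 2e-09, and -0.44 in senescent cells, adjusted p = 0.000329), but KO libraries kept counts of the gene. With 1 count per gene, the exons from which these reads came are not known. Which part the allele lacks is not given in the sources used here. The summed level of 10 fibroblast markers was 20458-26785 CPM in control and 10194-12622 CPM in senescent libraries. The sum was carried by the collagen genes Col1a1, Col1a2 and Col3a1 and by Vim. Vim was the highest marker in senescent cells, with means of 3078 CPM in WT and 3162 CPM in KO. Of the 10 markers 5 were lower and 5 higher in WT senescent and 5 lower and 3 higher in KO senescent cells. Of 8 chondrocyte markers all but 1 reached 1 CPM in some library, and their summed level moved with senescence, from 7291-9073 CPM in WT control to 1916-2217 CPM in WT senescent and from 4744-6566 CPM in KO control to 600-696 CPM in KO senescent libraries. Keratinocyte, leukocyte, endothelial, muscle and melanocyte lists each summed to at most 58.6 CPM in any library. The part of the fibroblast and chondrocyte markers in the results below was not tested, and in bulk samples fewer cells of a type and less RNA per cell cannot be told apart.

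The ribosomal protein genes took a smaller share of all counts in senescent than in control cells of both genotypes. Their share in the WT control libraries was 2.99%, 2.88% and 3.04%, and in the WT senescent libraries it was 2.44%, 2.38% and 2.40%. In the KO control libraries it was 3.18%, 2.77% and 2.83%, and in the KO senescent libraries it was 2.42%, 2.56% and 2.79%. The WT groups were well apart. The KO groups overlapped, because the third KO senescent library (2.79%) lay above the second KO control library (2.77%). The mean share was 2.97% ± 0.0801 in WT control, 2.41% ± 0.0315 in WT senescent, 2.93% ± 0.216 in KO control and 2.59% ± 0.184 in KO senescent cells (SD, n = 3), and the ratio of senescent to control was 0.811 in WT and 0.884 in KO cells. The 95% Wilson interval of each share extended at most 0.00688 percentage points to either side, for counting error only, which is less than the spread between libraries of every group.

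**Figure D1:**
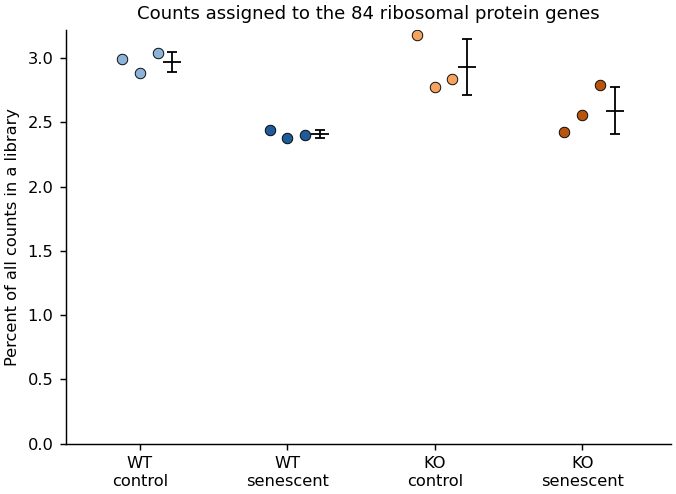
The share of all counts of a library that was assigned to the 84 ribosomal protein genes (y axis, percent, from 0) in the 4 groups, with 1 point per library and a bar for the mean ± SD of 3 libraries. All WT senescent points (2.38% to 2.44%) lie below all WT control points (2.88% to 3.04%), whereas the KO groups overlap at 2.77% to 2.79%.

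In WT cells the fall was shared by nearly the whole family. Of the 82 genes tested, 81 were lower in senescent than in control cells (edgeR quasi-likelihood test, adjusted p below 0.05) and 0 were higher. Of all 17416 genes tested, 27.0% were lower and 29.2% higher. The median log2 fold change of the ribosomal protein genes was -0.45, a fold of 0.730, with the central portion of the genes between -0.52 and -0.39, whereas the median of all genes tested was 0.02. The 1 gene that did not pass, Rps27rt, had a mean of 2.00 CPM and a log2 fold change of -0.29. For 81 of the 82 genes the 3 WT senescent libraries all lay below the 3 WT control libraries, which held for 29.7% of all genes tested. Genes of the large and small subunits had medians of -0.455 and -0.457.

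In KO cells 70 of the 82 genes were lower in senescent than in control cells and 0 were higher, against a background of 28.6% of all genes tested lower and 28.5% higher. All 70 were among the 81 of WT cells. The median log2 fold change was -0.31, a fold of 0.808, and that of all genes tested was -0.00275. The 12 genes that did not pass had values from -0.32 to -0.04, so all of them were below 0 with TMM scaling. Libraries did not overlap for 64 of the 82 genes, against 30.8% of all genes tested. With total counts only the count was 33, and the share of all genes with that scaling is not given here. Scaled by total counts only, which raises every senescent value, 43 genes passed as lower in KO cells and the median was -0.15, while the median of all genes was 0.15. Across the 79 genes averaging 5 CPM or more, Rpl22l1 left aside, the WT and KO log2 fold changes went together (Pearson r = 0.826, Spearman rho = 0.744). These comparisons share no library but come from 1 fit with common scaling.

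**Figure D2:**
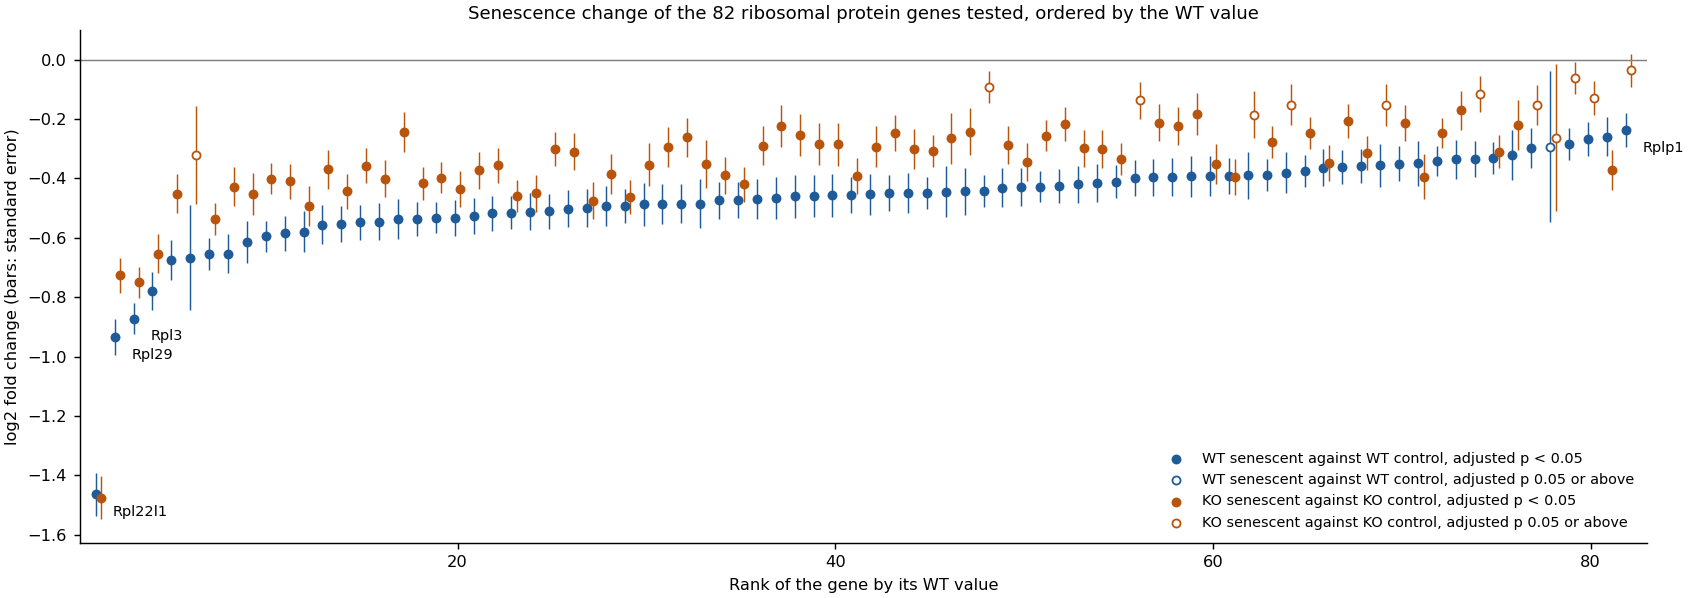
The log2 fold change of senescent against control cells (y axis, bars for the standard error) for each of the 82 ribosomal protein genes tested (x axis, rank by the WT value, with 4 genes named), in WT (blue) and KO cells (orange), with open points for genes whose adjusted p was 0.05 or above. All points lie below 0, Rpl22l1 stands apart at -1.46 and -1.47, and 78 of the 82 orange points lie above their blue partner.

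Rpl22l1, the paralogue of the large subunit protein gene Rpl22, stood apart from the rest of the family (chromosome 3, 28805436 to 28807424, plus strand, GRCm38). The WT control libraries had 81.0, 83.4 and 83.7 CPM, and the WT senescent libraries 30.4, 29.2 and 30.4 CPM. In KO cells it was 93.4, 75.4 and 74.3 CPM in control and 28.5, 28.4 and 30.5 CPM in senescent libraries. The senescent libraries of both genotypes lay in 1 narrow band, far below every control library. The change on the log2 scale was -1.46 ± 0.0736 in WT cells (SE, adjusted p = 4.94e-13) and -1.47 ± 0.0736 in KO cells (adjusted p = 3.95e-13), and the difference between these changes was -0.01 ± 0.103 (adjusted p = 0.961), with a sign that turned in several alternatives. Rpl22l1 was the only member whose change passed the study's limits for a differentially expressed gene (a log2 fold change beyond 1 in either direction with an adjusted p under 0.05), in WT and in KO senescence. Among all genes tested these limits were met by 17.4% in WT and 18.8% in KO cells.

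Rpl22 itself fell far less. It had 165 to 184 CPM in WT control, 133 to 136 CPM in WT senescent, 173 to 188 CPM in KO control and 137 to 155 CPM in KO senescent libraries (-0.36 in WT cells, adjusted p = 1.8e-05, and -0.31 in KO cells, adjusted p = 7.65e-05). The counts of Rpl22l1 were 45.4% to 50.5% of those of Rpl22 in the WT control libraries and 21.9% to 22.4% in the WT senescent libraries. In KO cells they were 42.3% to 49.7% in control and 19.7% to 20.9% in senescent libraries. The proportion of the paralogue was thus lower in every senescent than in every control library. In the other direction moved Rps27l, the p53-responsive paralogue of Rps27 that the rule leaves out. It was higher in senescent cells of both genotypes (log2 fold change 0.29, adjusted p = 0.0025 in WT, and 0.36, adjusted p = 0.000307 in KO), whereas Rps27 was lower (-0.26, adjusted p = 0.00222, and -0.37, adjusted p = 6.05e-05). With total counts only the WT value of Rps27 was -0.09 (adjusted p = 0.249). Annotated transcripts of other genes repeat 98.4% of the sequence windows of Rps27, so its level is uncertain. They repeat 40.6% of the windows of Rpl22l1 and 0% of those of Rpl22. The level of Rpl22l1 and its proportion to Rpl22 are therefore uncertain as well.

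**Figure D3:**
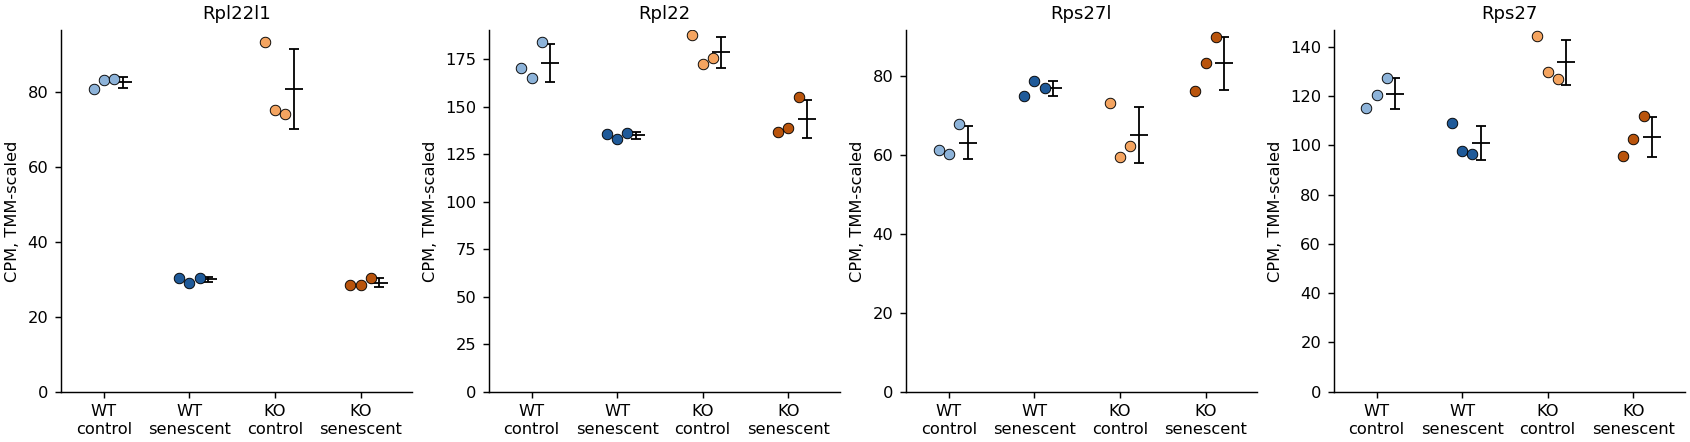
Levels (y axes, CPM scaled with TMM, from 0) of the paralogue pairs Rpl22l1 and Rpl22, and Rps27l and Rps27, in the 4 groups, with 1 point per library and a bar for the mean ± SD of 3 libraries. Rpl22l1 drops from 74.3-93.4 CPM in control to 28.4-30.5 CPM in senescent libraries, Rpl22 and Rps27 drop by less, and Rps27l is higher in every senescent library than in any control library of its genotype.

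After Rpl22l1 the largest falls were those of Rpl29 and Rpl3, both of the large subunit. Rpl29 went from 287-309 CPM in WT control to 150.5-160 CPM in WT senescent libraries (log2 fold change -0.93 ± 0.0602, adjusted p = 2.65e-11), and from 260-298 to 155-176 CPM in KO cells (-0.73 ± 0.06, adjusted p = 1.26e-09). Rpl3, which lines the peptidyl transferase centre, went from 866-947 to 483-499 CPM in WT (-0.87 ± 0.0525, adjusted p = 9.09e-12) and from 848-938 to 510-543 CPM in KO cells (-0.75 ± 0.0524, adjusted p = 9.11e-11). Neither gene overlapped between states in either genotype. Annotated transcripts of other genes repeat 62.0% of the sequence windows of Rpl29 and 79.4% of those of Rpl3, so their levels are uncertain. The heart and muscle paralogue of Rpl3, Rpl3l, was at the floor of 3 counts or close to it, with 0 to 9 counts in each library.

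The smallest falls in WT cells were those of Rplp1, Rps27 and Rpl26. Rplp1, an acidic protein of the stalk that recruits elongation factors, had 908, 915 and 978 CPM in the WT control libraries and 811, 777 and 789 CPM in the WT senescent libraries, a log2 fold change of -0.24 ± 0.057 (adjusted p = 0.00132), which was -0.07 with total counts only (adjusted p = 0.308). In KO cells it had 994, 877 and 932 CPM in control and 846, 916 and 972 CPM in senescent libraries, and these groups overlapped (log2 fold change -0.04, adjusted p = 0.607, and above 0 with total counts or upper-quartile scaling). Rpl26, near the exit tunnel, changed by -0.27 in WT cells (adjusted p = 0.000442, but -0.10 and adjusted p = 0.141 with total counts only) and had -0.13 in KO cells (adjusted p = 0.062, and above 0 with total counts only). Per kilobase of its main transcript, Rplp1 had the highest level of the family in all 4 groups (1871 CPM per kilobase in WT control, 1588 in WT senescent, 1873 in KO control and 1826 in KO senescent cells). The median over the 80 members that averaged 5 CPM or more was 442 CPM per kilobase in WT control, 317 in WT senescent, 442 in KO control and 354 in KO senescent cells. These levels rest on 1 annotated transcript for each gene.

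Genes were also grouped by their place or role in the ribosome, without a test between the groups. Of the 4 stalk genes (Rplp0, Rplp1, Rplp2 and Rpl12), 4 were lower in WT and 2 in KO senescent cells, with medians of -0.36 and -0.20. Rplp0, the base of the stalk, had -0.34 in WT cells (adjusted p = 6.02e-06) and -0.25 in KO cells (adjusted p = 0.000243, but -0.09 and adjusted p = 0.0852 with total counts only), and Rpl12 had -0.55 (adjusted p = 7.82e-08) and -0.36 (adjusted p = 2.38e-05). Rplp2 had -0.38 in WT (adjusted p = 9.96e-05) and -0.15 in KO cells (adjusted p = 0.0682), the latter above 0 with total counts only. Rpl5 and Rpl11, which with the 5S ribosomal RNA form the particle that can bind MDM2, were lower in both genotypes, with values of -0.58 and -0.61 in WT and -0.41 and -0.45 in KO cells. Rpl5 had 534 to 605 CPM in the WT control libraries and 375 to 379 CPM in the WT senescent libraries.

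Of the 7 genes whose proteins lie near the exit tunnel, 7 were lower in WT and 5 in KO cells (medians -0.43 and -0.24). All 5 listed genes of the messenger path and decoding region of the small subunit, among them Rps2 and Rps3, were lower in both genotypes. Rps6, the substrate of the S6 kinases, had 435 to 492 CPM in the WT control libraries and 344 to 359 CPM in the WT senescent libraries (log2 fold change -0.40, adjusted p = 1.53e-05), and in KO cells 433 to 497 and 373 to 426 CPM (-0.21, adjusted p = 0.00655, a call that was lost with total counts only). Rpsa, the laminin receptor and small subunit protein, was lower in WT (-0.53, adjusted p = 2.04e-08) and in KO cells (-0.40, adjusted p = 1.3e-06). Of the 9 listed genes mutated in Diamond-Blackfan anaemia, an inherited failure of red cell production, 9 were lower in WT and 8 in KO cells. The exception, Rps10, had -0.12 (adjusted p = 0.107, above 0 with total counts only). Rps19, the first of these genes to be linked to the disease, had -0.34 in WT (adjusted p = 0.000203) and -0.17 in KO cells (adjusted p = 0.0326, a call that was lost with RLE factors, upper-quartile factors or total counts only, with DESeq2, with only the groups compared, and when KO control replicate 1, KO senescent replicate 1 or KO senescent replicate 2 was left out). The 4 X-linked genes (Rpl10, Rpl36a, Rpl39 and Rps4x) were all lower in both genotypes, with medians of -0.45 and -0.38.

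Outside the naming rule, Rack1, a scaffold on the small subunit, was lower in WT (-0.53, adjusted p = 9.57e-08) and KO senescent cells (-0.39, adjusted p = 7.97e-06). Fau, which encodes a ribosomal protein fused to a ubiquitin-like protein, was lower in WT cells (-0.30, adjusted p = 0.00131, but -0.13 and adjusted p = 0.116 with total counts only). In KO cells it had -0.14 (adjusted p = 0.0946), and the value was above 0 with total counts only. Of 10 genes of the Rps6k kinase family, 4 were lower and 0 higher in WT senescent cells (27.0% and 29.2% of all genes). In KO senescent cells 7 were lower and 2 higher (28.6% and 28.5% of all genes).

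RefSeq promoters (GRCm38.p6) were found for 64 of the 84 symbols, with 75 annotated starts. A C at the annotated start followed by 4 bases that are each C or T, read on the strand of the gene, was present at 14 of these starts (18.7%), against 2.51% of the 32851 starts of all genes. A start annotated a few bases away from the true one would not be counted. The E-box CACGTG, the motif bound by BMAL1 with its partner CLOCK and the same on both strands, lay within the 250 bases before 7 of the 75 starts (9.33%), of 5 genes, against 6.02% of all starts. TATAAA on either strand lay before 4 of them (5.33%), against 12.4% of all starts. The 13 members with a TOP-like start and a mean of at least 5 CPM had median senescence changes of -0.43 (WT) and -0.24 (KO), and the 47 with a promoter and without such a start had -0.47 and -0.35. The 5 members with CACGTG (Rpl13a, Rpl14, Rpl19, Rpl34 and Rps19) had a median of 0.03 in KO against WT control cells, and the 55 others had 0.00.
The sequences below span 25 bases before and 15 bases from the annotated start, 5′ to 3′ on the strand of the gene. The first 5 are shown for their TOP-like start, in capitals up to the first purine. Rpl22l1 is shown as the gene with the largest fall, Rps13 as a gene that was lower in KO cells, both without the motif and without capitals, and Rpl19 for the E-box, in capitals.
Rpl35, chr2:39005117-39005156, minus strand: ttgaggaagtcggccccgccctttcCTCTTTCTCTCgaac
Rps6, chr4:86857353-86857392, minus strand: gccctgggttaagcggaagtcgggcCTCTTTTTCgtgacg
Rps15a, chr7:118116133-118116172, minus strand: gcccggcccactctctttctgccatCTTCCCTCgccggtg
Rpl14, chr9:120571492-120571531, plus strand: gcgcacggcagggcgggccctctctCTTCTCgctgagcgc
Rpl38, chr11:114668555-114668594, plus strand: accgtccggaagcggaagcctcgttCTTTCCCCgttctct
Rpl22l1, chr3:28805483-28805522, plus strand: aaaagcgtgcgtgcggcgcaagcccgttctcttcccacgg
Rps13, chr7:116334176-116334215, minus strand: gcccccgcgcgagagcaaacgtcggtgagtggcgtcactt
Rpl19, chr11:98026685-98026724, plus strand: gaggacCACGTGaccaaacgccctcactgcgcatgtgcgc

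The interaction asked whether the senescence change of KO cells differed from that of WT cells. The fall was smaller in KO than in WT cells for 78 of the 82 genes, and the median difference was 0.15 on the log2 scale, against -0.03 for all genes tested. It passed the test for 4 of the 82 genes, all higher (9.24% of all genes tested passed as higher), and 0 genes were lower (11.7% of all genes). At an unadjusted p below 0.05 there were 21 higher and 0 lower, and DESeq2 called 13 higher. No member met the limits for a differentially expressed gene in the interaction, which 3.66% of all genes met. The 4 genes were Rpl7l1 (0.35 ± 0.0763, adjusted p = 0.00251), Rpl35 (0.29 ± 0.0964, adjusted p = 0.0359), Rps27a (0.26 ± 0.0872, adjusted p = 0.0376) and Rpl24 (0.22 ± 0.0754, adjusted p = 0.0419). At the other end, Rps27, Rps14 and Rpl22l1 had values of -0.11, -0.05 and -0.01, of which none passed (adjusted p = 0.439, 0.815 and 0.961), and the last 2 changed sign in some alternatives.

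The count of 4 depended on single libraries. The share of 9.24% of all genes belongs to the main fit of 12 libraries, and that share is not given here for the fits below. Without KO control replicate 1, whose share of ribosomal protein counts was the highest of all (3.18%), 34 genes passed, and without KO senescent replicate 1, with the lowest share of its group (2.42%), 18 genes passed. Without KO senescent replicate 2 or 3 there were 2. Without WT control replicate 1 or 3, any 1 of the WT senescent libraries, or KO control replicate 2 or 3, there was 1.

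Rpl7l1, a member by its symbol, is a paralogue of the large subunit gene Rpl7. It had 158, 150 and 168 CPM in the WT control and 119, 112 and 119 CPM in the WT senescent libraries. In KO cells it had 145, 139 and 132 CPM in control and 130, 127 and 133 CPM in senescent libraries. The WT states were apart and the KO states overlapped, and the KO control libraries lay below the WT control libraries. Its change was -0.44 ± 0.054 in WT (adjusted p = 4.68e-07) and -0.09 ± 0.0539 in KO cells (adjusted p = 0.159, and above 0 with total counts only). Rpl35, beside the exit tunnel, had 201, 202 and 215 CPM in the WT control libraries and 146, 141 and 139 CPM in the WT senescent libraries. Its KO control libraries had 225, 184 and 195 CPM and its KO senescent libraries 157, 167 and 186 CPM. The WT change was -0.54 (adjusted p = 1.05e-06). The KO change was -0.24 (adjusted p = 0.00437), although the KO states overlapped, and it was -0.09 with total counts only (adjusted p = 0.265). Rps27a, which is made as a fusion with ubiquitin, had 220 to 243 CPM in WT control, 173 to 178 CPM in WT senescent, 203 to 244 CPM in KO control and 193 to 213 CPM in KO senescent libraries, with changes of -0.40 (adjusted p = 1.16e-05) and -0.14 (adjusted p = 0.0629). Rpl24, a large subunit protein at a bridge between the subunits, had 77.8 to 84.9 CPM in WT control, 64.9 to 69.7 CPM in WT senescent, 74.0 to 77.8 CPM in KO control and 70.9 to 75.7 CPM in KO senescent libraries, with changes of -0.28 (adjusted p = 0.000115) and -0.06 (adjusted p = 0.33). With total counts only the KO values of Rps27a and Rpl24 were above 0, and the WT value of Rpl24 was -0.11 (adjusted p = 0.0553).

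In control cells few members differed between the genotypes. The members' median for KO over WT control was 0.000979 on the log2 scale, and 3 of the 82 genes were lower and 0 higher, against 4.96% lower and 8.07% higher among all genes tested. At an unadjusted p below 0.05 there were 4 lower and 4 higher, and DESeq2 called 1 gene higher. None was a differentially expressed gene by the study's limits, which 2.54% of all genes met. The 3 genes were Rps15a, Rps13 and Rpl7l1, the last with -0.20 (adjusted p = 0.0182). The call of Rpl7l1 was lost with GC and length offsets (adjusted p = 0.0572) and without WT control replicate 1 or 3 or KO control replicate 2 or 3 (adjusted p = 0.0549, 0.0894, 0.0654 and 0.125). Among members averaging 5 CPM or more, the highest values were those of Rps20 (0.18, adjusted p = 0.0883), Rps27 (0.14, adjusted p = 0.168) and Rpl10 (0.12, adjusted p = 0.173), none of which passed. Rpl39l, with a mean of 4.26 CPM, had 0.50 (adjusted p = 0.0561), and passed with DESeq2 (adjusted p = 0.0469) and without WT control replicate 2 (adjusted p = 0.0436).

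In senescent cells part of the family was higher in KO than in WT cells. Of the 82 genes 26 were higher in KO than in WT senescent cells and 2 were lower, against 11.9% higher and 11.8% lower among all genes tested, and the median log2 fold change was 0.15 (all genes -0.02). For 50 of the 82 genes the 3 KO libraries all lay above the 3 WT libraries, against 21.0% of all genes tested. The 50 include all 26 that passed, which were called from these same libraries. The count of 50 was 31 with total counts only and 78 without KO senescent replicate 1. Shares of all genes are not given here for these counts, and groups of fewer libraries overlap less readily. No member was a differentially expressed gene, which 3.48% of all genes were. Among members averaging 5 CPM or more, the highest were Rps20 (119 to 127 CPM in WT and 138 to 161 CPM in KO libraries, 0.27 ± 0.0683, adjusted p = 0.00673), Rpl35 (0.26 ± 0.0683, adjusted p = 0.00819) and Rps12 (280 to 293 CPM in WT and 306 to 387 CPM in KO libraries, 0.25 ± 0.071, adjusted p = 0.0129). Rpl22l1 had -0.04 (adjusted p = 0.753). The low paralogue Rpl39l had the highest value of all members, with 2.69, 2.69 and 2.32 CPM in WT senescent and 4.05, 4.75 and 5.03 CPM in KO senescent libraries (0.84 ± 0.174, adjusted p = 0.00112).

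This count, too, turned on single libraries. The share of 11.9% of all genes belongs to the main fit of 12 libraries, and that share is not given here for the fits below. The KO senescent libraries spread widely (2.42% to 2.79% of counts), and without replicate 3, the highest, 4 genes passed as higher, whereas without replicate 1, the lowest, 41 did, and without replicate 2, 14 did. Without WT senescent replicate 1, 2 or 3 the counts were 15, 5 and 9, and without KO control replicate 1, which enters through the shared estimate of the spread, 40. DESeq2 called 45 and total counts alone 12. The calls of Rpl35 and Rps12 were lost without KO senescent replicate 3 (adjusted p = 0.0567 and 0.0862), and that of Rps12 also without WT senescent replicate 2 (adjusted p = 0.0615).

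Rps15a and Rps13, both small subunit genes on chromosome 7, were lower in KO than in WT cells in both states. Rps15a (118104372 to 118116188, minus strand) had 270, 259 and 291 CPM in the WT control libraries and 170, 149 and 149 CPM in the KO control libraries (-0.81 ± 0.0679, adjusted p = 4.35e-08), and 202, 194 and 190 CPM in WT senescent and 115, 125 and 139 CPM in KO senescent libraries (-0.62 ± 0.068, adjusted p = 1.34e-06). Rps13 (116331505 to 116334195, minus strand) had 212, 199 and 215 CPM in the WT control libraries and 161, 147 and 141 CPM in the KO control libraries (-0.48 ± 0.0675, adjusted p = 4.48e-05), and 150, 147 and 148 CPM in WT senescent and 102, 114 and 128 CPM in KO senescent libraries (-0.37 ± 0.0679, adjusted p = 0.000368). The genotypes were apart in every comparison. Both genes fell with senescence in both genotypes, Rps15a with log2 fold changes of -0.49 (WT) and -0.29 (KO), and Rps13 with -0.49 and -0.39. The KO call of Rps15a was lost with total counts only (-0.14, adjusted p = 0.076).

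Both genes lie near Arntl (chromosome 7, 113207465 to 113314126), Rps13 at 3.02 Mb and Rps15a at 4.79 Mb. Rpl27a, 3.69 Mb away on the other side, had a log2 fold change of -0.02 in control cells, and the other 11 members on chromosome 7, at 13.7 Mb or more, lay between -0.06 and 0.05. Of the 72 genes tested within 5 Mb of Arntl, 13.9% passed in KO against WT control cells, and of the 966 genes at 20 Mb or more on the same chromosome 13.8% passed. In senescent cells these shares were 30.6% and 22.3%.

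Pseudogenes that share sequence with these 2 genes differed between the genotypes as well. Rps13-ps1, a processed pseudogene on chromosome 8, had 0.0814 to 0.361 CPM in the WT control libraries and 17.0 to 26.6 CPM in the KO control libraries (log2 fold change 6.74, adjusted p = 7.92e-12). Rps13-ps2, on chromosome 7, went the other way, from 1.51-2.12 to 0.12-0.236 CPM (-3.37, adjusted p = 1.57e-05). Rps15a-ps5, Rps15a-ps6 and Rps15a-ps7, on chromosomes 5, 11 and 2, were higher in KO control cells with log2 fold changes of 3.05, 4.42 and 4.02 (adjusted p = 7.98e-07, 1.52e-10 and 5.3e-09). Counts on the lower side were few. Rps13-ps1 had 14 over the WT control libraries, and Rps13-ps2 had 13 over the KO control libraries. The 3 Rps15a copies had 26, 35 and 23 over the WT control libraries. The sizes of these fold changes are therefore imprecise. Of the 51 named ribosomal protein pseudogenes tested, 4 were higher and 1 lower in KO control cells. They are the pseudogenes named above, all copies of Rps13 or Rps15a, and no other pseudogene on the list passed. Among all genes tested 8.07% were higher and 4.96% lower, so these counts are not above the shares of all genes. Together with the 5 pseudogenes that share windows with each, the mean level in control cells was 212 ± 9.29 CPM in WT and 172 ± 15.04 CPM in KO cells for Rps13, and 275 ± 16.8 and 175 ± 16.03 CPM for Rps15a (SD, n = 3). The log2 ratio of these sums was -0.30 for Rps13 and -0.65 for Rps15a, so the sums were still lower in KO control cells. In senescent cells the Rps13 sums were 150.7 ± 1.59 CPM in WT and 133.5 ± 14.6 CPM in KO cells. Their log2 ratio was -0.17, against -0.37 for Rps13 alone. The Rps15a sums were 196.3 ± 5.95 and 141.7 ± 13.8 CPM, with a log2 ratio of -0.47 against -0.62 for Rps15a alone. Whether a sequence difference between the genotypes near Arntl moved reads from these genes to their copies was not tested.

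**Figure D4:**
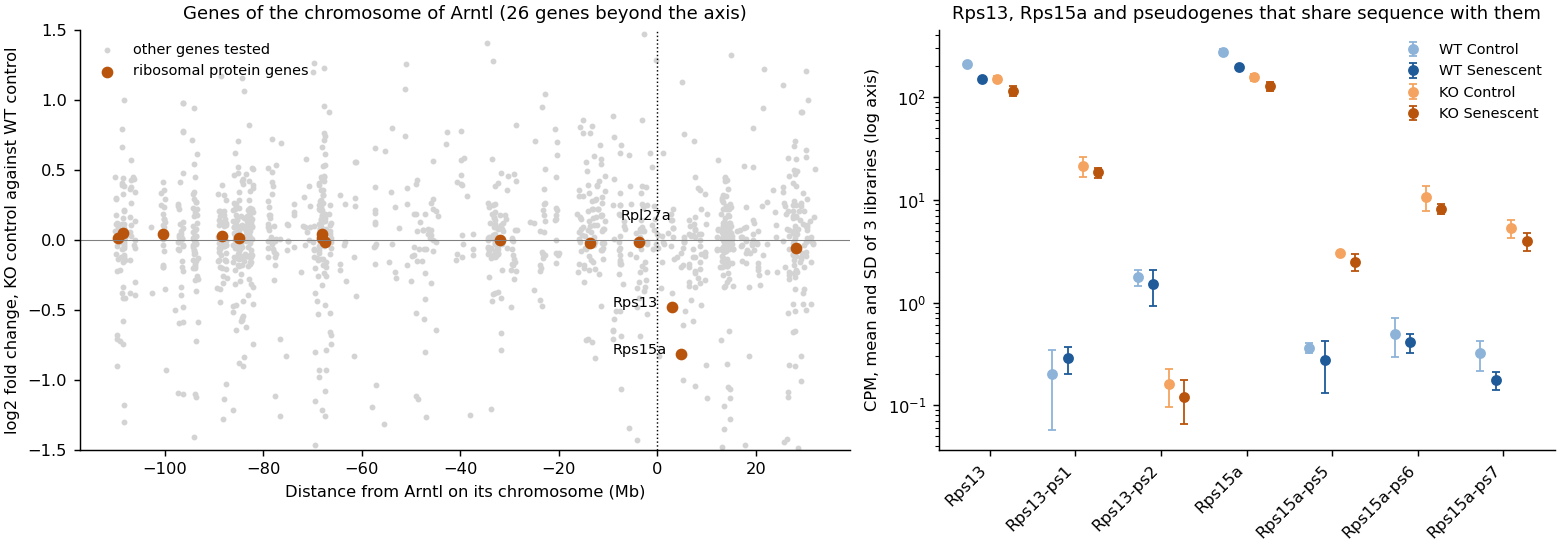
Left, the log2 ratio of KO to WT control cells (y axis) against the distance from Arntl in Mb (x axis) for the genes tested on chromosome 7, with the 14 ribosomal protein genes in orange and 26 other genes beyond the y axis. Right, the mean ± SD of 3 libraries in CPM (log axis) of Rps13, Rps15a and 5 pseudogenes in the 4 groups. Rps13 and Rps15a lie at -0.48 and -0.81 while the other members lie between -0.06 and 0.05, and Rps13-ps1 and the Rps15a pseudogenes are higher in KO groups.

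Copies are common in this family. Of the 84 genes, 76 shared at least 1 window of 100 bases of their main transcript exactly with an annotated transcript of a gene elsewhere, and 65 shared 20% or more of their windows. The study counted reads that aligned uniquely, so levels of such genes can be too low. The 17 tested genes with under 20% of windows shared had a median of -0.45 in WT and -0.31 in KO cells, and the 65 others had -0.46 and -0.31. Over 80 genes the percentage of shared windows had a Spearman rho of -0.025 with the WT and of -0.031 with the KO log2 fold change. Transcript length had -0.318 and -0.223, and GC content 0.108 and 0.14. These are descriptions over genes that share libraries and scaling. Exons of 39 of the 84 genes also overlap those of another annotated gene. Among the 4 genes that passed in the interaction, Wdr38 on the opposite strand overlaps 66.2% of the exon bases of Rpl35. Gm28037 on the same strand overlaps 47.0% of those of Rpl24. The largest overlap was 8.11% for Rps27a and 0% for Rpl7l1. The effect of such overlaps on the counts was not tested.

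Other genes of the translation apparatus were set beside the family. For this and the following lists, 27.0% of all genes tested were lower and 29.2% higher in WT senescence. The shares were 28.6% and 28.5% in KO senescence, and 4.96% and 8.07% in KO against WT control. In the interaction 11.7% of all genes were lower and 9.24% higher. Of 16 translation factors and other genes with TOP messages, 15 were lower and 0 higher in WT senescent cells (median -0.42) and 14 lower and 0 higher in KO senescent cells (median -0.28). Hnrnpa1, an RNA-binding protein, had the largest falls (-1.25, adjusted p = 4.49e-13 in WT, and -1.27, adjusted p = 3.02e-13 in KO). In the interaction 5 of the 16 were higher and 0 lower, with the highest value for Nap1l1, a histone chaperone (0.48, adjusted p = 0.00209). The count of 5 was 8 without KO control replicate 1, and 3 without replicate 3 of WT control, 2 or 3 of WT senescent, 2 or 3 of KO control or 3 of KO senescent cells. Of 34 initiation factors outside that list, 25 were lower and 1 higher in WT cells (median -0.30) and 9 lower and 9 higher in KO cells (median -0.03), and 20 were higher and 0 lower in the interaction. Eif5a had the lowest WT value (-0.78, adjusted p = 1.7e-09), Eif5 the highest KO value (0.38, adjusted p = 9.24e-06), and Eif6, which keeps free large subunits from joining small ones, the highest interaction value (0.81, adjusted p = 0.000825).

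The ribosome assembly factors, which process ribosomal RNA and build the subunits in the nucleolus, had medians of opposite sign in the 2 genotypes. Of 85 tested, 45 were lower and 4 higher in WT senescent cells (median -0.22), whereas 12 were lower and 45 higher in KO senescent cells (median 0.17). In the interaction 63 were higher and 0 lower (median 0.44), and in KO against WT control 47 were lower and 0 higher (median -0.25). Rrp1b had the lowest values in both genotypes (-1.20, adjusted p = 1.12e-10, and -0.89, adjusted p = 1.1e-08), Znhit6 the highest (0.68, adjusted p = 1.24e-08, and 1.30, adjusted p = 3.48e-13), and Ncl, which encodes nucleolin, the highest interaction value (0.78, adjusted p = 0.000582). With total counts only, 31 were lower and 15 higher in WT and 8 lower and 58 higher in KO cells.

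Of 15 genes of RNA polymerase I and its factors, which transcribe the large ribosomal RNA, 8 were lower and 0 higher in WT senescent cells. In KO senescent cells 4 were lower and 3 higher, not above the shares of all genes (28.6% and 28.5%). In the interaction 4 were higher and 1 lower (9.24% and 11.7% of all genes). There were 2 higher without replicate 3 of WT control, 3 of WT senescent or 2 of KO control cells, and 0 lower without replicate 1 or 2 of WT control, 1 of WT senescent or 2 or 3 of KO senescent cells. Taf1d had the lowest WT value (-0.77, adjusted p = 2.48e-05), Ubtf the lowest KO value (-0.66, adjusted p = 2.06e-09) and Polr1e the highest interaction value (0.67, adjusted p = 0.000335). Of 14 noncoding host genes of small nucleolar RNAs, 7 were lower and 3 higher in WT (27.0% and 29.2% of all genes). In KO cells 2 were lower and 5 higher (28.6% and 28.5% of all genes). In the interaction 5 were higher and 0 lower (9.24% and 11.7% of all genes). This count of higher genes was 8 without KO control replicate 1, and 2 or 3 without replicate 1 of WT control, 2 or 3 of WT senescent, 2 or 3 of KO control or 3 of KO senescent cells. Snhg5, the lowest, had -0.79 in WT (adjusted p = 9.29e-09) and -0.51 in KO cells (adjusted p = 4.34e-06).

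The 78 mitochondrial ribosomal protein genes, the nuclear genes of the separate ribosome of the mitochondria, were mixed in direction. In WT cells 29 were lower and 5 higher (27.0% and 29.2% of all genes), with a median of -0.14. In KO cells 13 were lower and 13 higher, less often than among all genes (28.6% and 28.5%), with a median of 0.01. With total counts only, 9 were lower and 12 higher in WT and 5 lower and 32 higher in KO cells. Mrpl18 had the lowest values (-0.65, adjusted p = 9.52e-07, and -0.60, adjusted p = 2.9e-06), Mrpl1 the highest in WT (0.38, adjusted p = 0.00352) and Mrps31 the highest in KO cells (0.62, adjusted p = 5.61e-06). In the interaction 10 were higher and 0 lower (9.24% of all genes were higher), and 3 to 14 were higher when 1 library was left out, with 3 to 5 if the library was replicate 1 or 3 of WT control, 2 or 3 of WT senescent, 2 or 3 of KO control or 3 of KO senescent cells.

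Of 23 genes of mTORC1, its S6 kinases and the regulators of TOP messages, 12 were lower and 5 higher in WT senescent cells (27.0% and 29.2% of all genes), and 10 lower and 7 higher in KO senescent cells (28.6% and 28.5% of all genes). Myc, a transcription factor that drives many genes of ribosome production, had 66.4 to 74.4 CPM in WT control, 45.6 to 53.0 CPM in WT senescent, 51.5 to 60.0 CPM in KO control and 60.9 to 82.9 CPM in KO senescent libraries. It was lower in WT (-0.50, adjusted p = 0.000576) and higher in KO senescent cells (0.38, adjusted p = 0.00452), with an interaction of 0.88 (adjusted p = 0.000633). Deptor, an inhibitor within the complex, had the lowest KO value (-1.34, adjusted p = 1.25e-06) and Max, the partner of MYC, the highest (0.63, adjusted p = 2.96e-08). Eif4ebp1, which encodes a repressor of cap-dependent translation, had the highest value of KO against WT senescent cells (0.63, adjusted p = 3.32e-07).

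**Figure D5:**
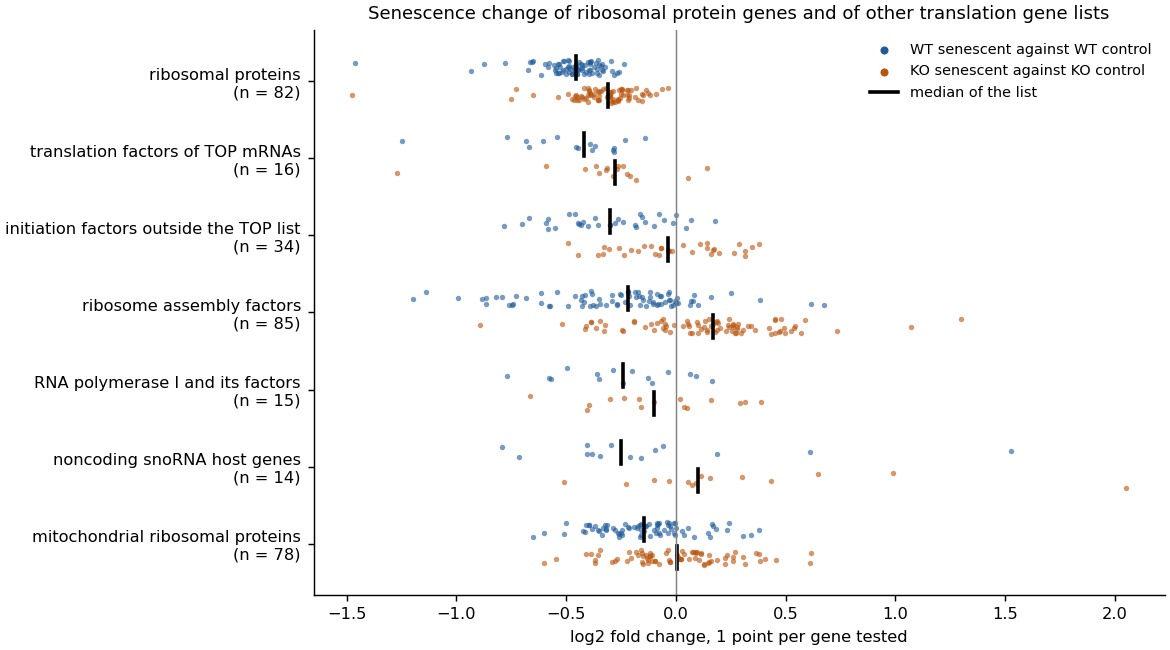
The log2 fold change of senescent against control cells (x axis) in WT (blue) and KO cells (orange) for ribosomal protein genes and 6 other lists of the translation apparatus (y axis, n genes tested), with 1 point per gene and a black bar for the median of each list. The ribosomal proteins lie below 0 in both genotypes (medians -0.45 and -0.31), whereas the assembly factors have medians on opposite sides of 0 (-0.22 and 0.17).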

How the data were processed

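Poly(A) messages were enriched from RNA of 12 libraries and sequenced in pairs, per the study's methods. The authors trimmed reads (Trimmomatic 0.36), aligned them to GRCm38 with STAR (2.5.2b) and counted uniquely aligned reads in exons with featureCounts. The use of strand and the annotation release are not given in the sources used here. The deposited values are raw counts per gene, in 1 table for each genotype, with 0 columns left unused. They were joined by gene identifier and named with GENCODE annotation of GRCm38 (49056 of 49315 rows).

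Counts of all genes that passed filterByExpr were fitted with edgeR (4.0.16, R 4.3.3) quasi-likelihood models, robust, with TMM factors and 1 mean per group over 12 libraries. P-values were adjusted by Benjamini-Hochberg over the 17416 genes tested, and a gene passed at an adjusted p below 0.05. CPM are counts per 1000000 of TMM-scaled library size, and fold changes carry the model's standard error (SE). DESeq2 (1.42.0), other scalings, GC and length offsets, no filter, a replicate block and leaving out each library were alternatives. The model steps were tested on simulated data. The best supported complete coding transcript of a gene, the shortest among equals, gave its length and 100-base windows. Promoters were those of RefSeq. Intervals and the floor of 3 counts cover counting error only.

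The genes named are the panel by role in the ribosome, the 3 highest and 3 lowest of each comparison with a mean of at least 5 CPM, every differentially expressed member, and the highest or lowest of each list. Members, lists and tests were chosen with earlier results of these data known. Names outside the rule (Rps13-ps1 and the other pseudogenes, Rps10 and Rpl39l as exceptions) were chosen after their values were seen. Some results are not reported here.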

Additional observations from a re-analysis of the deposited data

Results flagged for a closer look

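For 4 of the 82 ribosomal protein genes tested (4.88%) the senescence change of KO cells differed from that of WT cells by the test of the interaction. All 4 were higher, a smaller share than among all genes tested, of which 9.24% were higher and 11.7% lower. The difference of the log2 fold changes was 0.352 for Rpl7l1, 0.293 for Rpl35, 0.262 for Rps27a and 0.221 for Rpl24 (edgeR quasi-likelihood test, adjusted p = 0.00251, 0.0359, 0.0376 and 0.0419). In each case the fall was smaller in KO cells. Leaving out single libraries gave adjusted p up to 0.12 for Rpl35, 0.137 for Rps27a and 0.12 for Rpl24. Rpl7l1 passed in every leave-one-out fit.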

How the results depend on the processing

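The fall of the family in WT cells kept its count of 81 genes in every leave-one-out fit, and that in KO cells ranged from 63 to 77. Its median in WT was -0.285 with total counts only, -0.369 with upper-quartile factors and -0.6 with GC and length offsets, which also gave 3 differentially expressed members. With total counts only, 43 genes passed as lower in KO cells, and the share of higher calls among all genes that passed was 68.5% in WT senescence (52.0% with TMM), 64.9% in KO senescence (49.9%) and 40.1% in KO against WT senescent cells (50.4%). The difference between the medians of members and all genes was -0.48 in WT with TMM and with total counts only. A scaling factor moves all genes alike, so this difference could not change. With GC and length offsets it was -0.52. The interaction gave 9 higher genes with RLE or upper-quartile factors, 13 with DESeq2, 1 with the replicate block and 1 to 34 when single libraries were left out. KO against WT control cells gave 1 higher gene without a filter, with the replicate block or with DESeq2, and 0 to 1 with a library left out. KO against WT senescent cells gave 12 higher genes with total counts only, 43 with only the groups compared, 45 with DESeq2 and 4 to 41 with a library left out. Shares of all genes tested that passed are given for the main fit only, so counts from the alternatives stand without their own background. Leaving out members with 20% or more of windows shared, chosen after seeing the data, leaves 0 differentially expressed members in either senescence comparison, 1 lower gene in KO against WT control and 0 in KO against WT senescent cells, since Rpl22l1, Rps13 and Rps15a are then not counted. Apart from these constructions the causes were not tested.

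Signs changed for values near 0. The Rpl22l1 interaction was 0.0192 with RLE, 0.0601 with GC and length offsets, 0.0211 with DESeq2 and -0.0712 to 0.101 with a library left out, and its value in KO against WT senescent cells was 0.00921 with those offsets. The Rps14 interaction was -0.135 to 0.054 with a library left out. In KO senescence, total counts only gave 0.117 for Rplp1, 0.0628 for Rpl7l1, 0.0162 for Rps27a, 0.0905 for Rpl24, 0.00139 for Rplp2, 0.0259 for Rpl26, 0.0106 for Fau and 0.0375 for Rps10. Upper-quartile factors gave 0.0459 for Rplp1 and 0.0198 for Rpl24, and Rplp1 was -0.0881 to 0.0236 with a library left out.

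Same-numbered libraries did not deviate together (r from -0.125 to 0.127 over 18 pairs), and the main fit did not treat the numbers as pairs. With 3 libraries in a group, this check cannot exclude a shared origin of same-numbered libraries. The planned count of copies in the genome was not run. Counts depend on unique alignment, and 76 of 84 members share sequence with other transcripts.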
